A study of Mus musculus with 8 samples.

Results

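The circadian clock genes described here are 10 genes of the feedback loops that keep daily time in mammalian cells: Clock, Npas2, Per1, Per2, Per3, Cry1, Cry2, Nr1d1, Nr1d2 and Rora. They were chosen by name, and 10 of 10 were among the 15519 genes of the deposited table. The libraries held nuclear RNA of wild-type mouse hippocampal pyramidal cells that had been identified as place cells by two-photon imaging during navigation, phototagged and collected. Both groups shared this genotype, tissue and tagging, and they differed in the label Day 0 place cell (4 libraries) or Recurring place cell (4 libraries). The labels do not define the 2 classes further, and the number of nuclei per library, the age and sex of the mice and the time of day of collection are not given in the sources used here. Each library carries its own mouse number, and nothing else states that the libraries are separate animals, so the p values speak of variation among these libraries, which may be partly technical.

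In the core loop, the transcription factor CLOCK, or its relative NPAS2, pairs with BMAL1 and switches on the Per and Cry genes through DNA elements called E-boxes. The PER and CRY proteins then enter the nucleus and repress that pair. In a second loop, REV-ERB proteins (from Nr1d1 and Nr1d2) repress, and ROR proteins (from Rora) activate, genes with ROR elements such as Bmal1. In forebrain neurons NPAS2 can stand in for CLOCK, and Per1 is also induced by neuronal activity and by glucocorticoids.

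Recovered depth ranged from 8374986 to 14887866 reads per library, with 10718 to 13807 genes detected. CA1 pyramidal markers were abundant in every library, with 13 of 14 listed genes in the table and a summed level of 35623 to 48311 normalized counts in Day 0 and 33807 to 52807 in Recurring libraries. Of 12 astrocyte markers 11 were in the table, with a summed level of 2184 to 5045 in Day 0 and 2289 to 21341 in Recurring libraries, highest in Recurring replicate 1. Of 12 interneuron markers 10 were in the table, at 925 to 3918 and 1526 to 12278, highest in Recurring replicate 2, while Gad1 and Gad2, which make GABA, were both at 0 reads in Day 0 replicate 4. Of 10 microglia markers 5 were in the table, at 213 to 707 and 507 to 6056, highest in Recurring replicate 4. Of 7 oligodendrocyte precursor markers 3 were in the table. Their summed levels did not overlap, at 0 to 136 in Day 0 and 393 to 505 in Recurring libraries. Their mean log2 levels did overlap, with 4.10 in Day 0 replicate 2 and 2.87 in Recurring replicate 1. Only 1 of these 3 was tested, and its groups overlapped. How often the sums of 3 genes do not overlap was not computed. Some other lists had lower mean log2 levels in Recurring libraries. Oligodendrocyte markers had 6.40 ± 2.27 in Day 0 and 5.91 ± 2.01 in Recurring libraries (SD, n = 4). The 4 choroid plexus and ependyma markers in the table had 5.64 ± 1.24 and 2.74 ± 0.37. Their summed levels overlapped, at 926 to 2934 in Day 0 and 530.2 to 5459 in Recurring libraries. Only 1 of these 4 was tested, and its difference was -0.08. At an unadjusted limma p under 0.05 there were 3 of 11 tested astrocyte and 2 of 4 tested microglia markers, against 3.62% of all tested genes. In the same fit there were 1 of 13 tested CA1 pyramidal, 0 of 7 interneuron and 0 of 7 oligodendrocyte markers. In each of these lists 0 were called. The part of these other cells in the clock gene values was not tested. In such bulk libraries, fewer cells of a type and less RNA per cell cannot be told apart.

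Values below are normalized counts, that is, whole reads divided by a size factor for library depth. Differences are Recurring minus Day 0 on the log2(normalized count + 1) scale, which understates the change of low genes. They carry limma's standard error (SE), and p values were adjusted by Benjamini-Hochberg over 11078 tested genes.

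Promoter sequence is shown for the 3 clock genes of the Period and cryptochrome families whose windows held E-box or D-box letters. Among these 3, Per1 and Per3 were steady across libraries and Cry1 was not. RefSeq windows of 250 bases before and 50 bases from the start site were found for 9 of the 10 genes. None was found for Per2, so its promoter was not searched. The windows are from GRCm38.p6, an earlier build than the GRCm39 named for the alignments. The letters searched, on both strands, were CACGTG (the E-box), TTATGNAA (the D-box, bound by DBP, TEF, HLF and NFIL3) and AGGTCA (a half-site of ROR and REV-ERB). The stretches run 5′ to 3′ on the strand of the gene, with matches in capitals, from chr4:151044796-151044890 for Per3, chr10:85185089-85185134 for Cry1 (both on the minus strand) and chr11:69098763-69098948 for Per1 (plus strand).
Per3: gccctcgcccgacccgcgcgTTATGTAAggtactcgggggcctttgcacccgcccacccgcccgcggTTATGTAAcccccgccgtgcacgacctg
Cry1: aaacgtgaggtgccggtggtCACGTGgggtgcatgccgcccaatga
Per1: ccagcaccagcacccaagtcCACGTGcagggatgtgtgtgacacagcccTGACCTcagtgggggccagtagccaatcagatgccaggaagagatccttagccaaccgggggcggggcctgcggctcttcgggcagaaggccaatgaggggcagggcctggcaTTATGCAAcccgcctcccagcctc

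The Per1 stretch held 1 match of each kind (TGACCT is AGGTCA on the other strand), Per3 held 2 D-box matches and Cry1 held 1 E-box. The 9 genes had 12 windows in all, since some have several start sites. E-box letters stood in 2 of these 12 windows and in 7.15% of all 32851 windows. D-box letters stood in 2 of the 12 and in 3.38% of all windows, and the half-site in 3 of the 12 (Per1, Clock and Nr1d2) and in 16.3% of all windows. A match describes the letters and does not show binding.

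Among all 10 genes, Per3 gave the highest level once exon length was allowed for, and Npas2 and Rora the lowest. Mean levels per kilobase of exon (union of GENCODE vM21 exons) were 647 normalized counts for Per3, 211 for Clock, 154 for Nr1d2, 141 for Cry2, 130.2 for Nr1d1, 114 for Per1, 105 for Per2, 69.9 for Cry1, 22.6 for Rora and 12.6 for Npas2. Per3 ranked first in 7 of 8 libraries, and in Recurring replicate 2 Cry1, at 309 per kilobase, stood above Per3, at 283. No neighbours in this order had ranges that were apart: Per3 was above Clock in 7 of 8 libraries, Clock above Nr1d2 in 5 and Nr1d2 above Cry2 in 3.

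**Figure D1:**
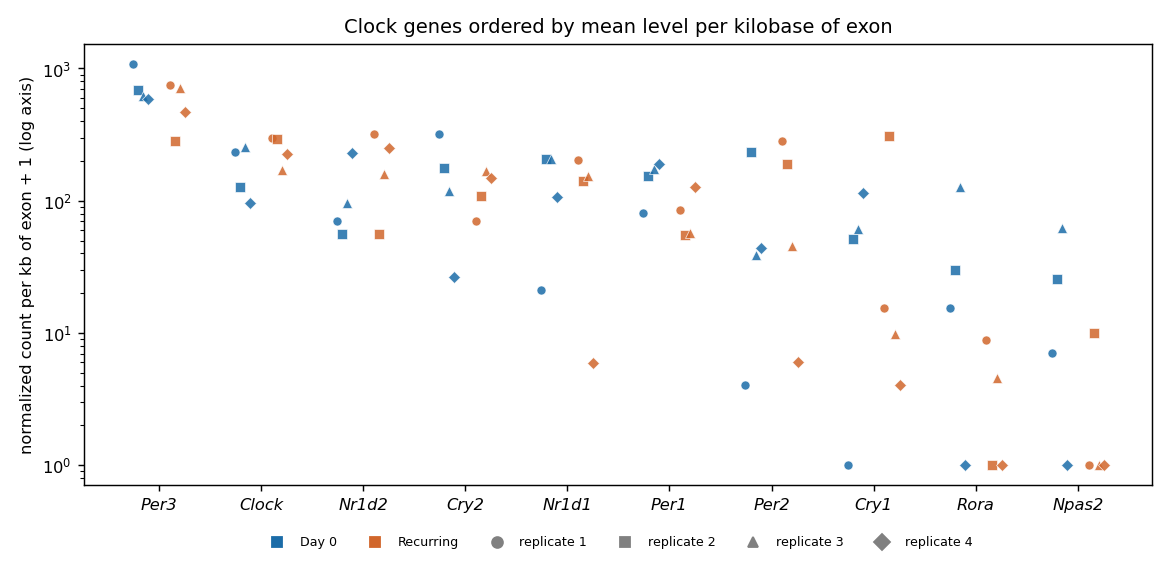
Normalized counts per kilobase of exon plus 1 (log axis) for the 10 clock genes, ordered by their mean, with 1 point per library, colour for group and shape for replicate. Per3 spans 283 to 1079 per kilobase, and the points at the bottom are libraries with 0 reads of Cry1, Rora or Npas2.

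No clock gene separated Recurring from Day 0 place cells, but the libraries were unlike each other. Over the 28 pairs of libraries, Pearson's r across the tested genes was 0.40 to 0.60. With 4 such libraries per group, the lack of a call does not show equal levels. Of the 10 genes, all of which were tested, limma called 0, and it called 0% of the 11078 genes tested. At an unadjusted p under 0.05 there were 0 of 10 clock genes, against 3.62% of all tested genes (1.88% higher and 1.74% lower in Recurring cells). The groups were apart in 0 of 10 clock genes, against 2.41% of all tested genes (1.24% higher and 1.17% lower). Voom, run on the recovered reads, also called 0 genes. The log2 means of Clock, Per2, Cry1, Cry2 and Nr1d2 lay higher in Recurring cells and those of the other 5 lower, where 50.1% of all tested genes were higher and 49.9% lower. The median difference was -0.22, against 0.00 over all tested genes. A library with 0 reads occurred for 3 of the 10 (Npas2, Cry1 and Rora), against 45.6% of all tested genes.

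**Figure D2:**
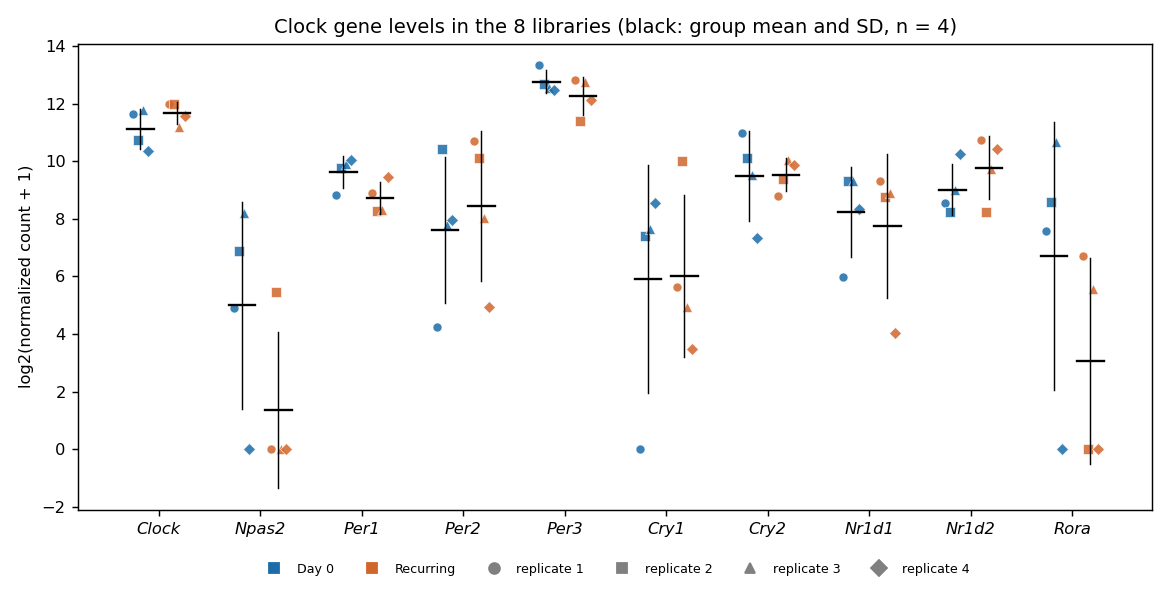
Level of each clock gene as log2(normalized count + 1), 1 point per library, with the group mean and SD (n = 4) in black. Day 0 and Recurring libraries overlap for each of the 10 genes, and Per3, Clock and Per1 are the least spread.

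Clock and Npas2 encode the alternative partners of BMAL1. Clock stood at 3179, 1718, 3519 and 1314 in Day 0 replicates 1 to 4 and at 4062, 4027, 2347 and 3059 in Recurring replicates 1 to 4. Recurring libraries 1 and 2 were above every Day 0 library and the other 2 lay inside the Day 0 range. The difference was 0.55 (SE 0.43, 95% interval -0.36 to 1.47, limma adjusted p = 0.981), and it was 0.30 without Day 0 replicate 4. Clock was among the steadier genes: its within-group SD of 0.55 log2 units was larger than that of only 6.26% of tested genes, where the median was 2.36, and its mean was higher than that of 95.7% of them.

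Npas2 stood at 29, 118, 294 and 0 in Day 0 and at 0, 42.8, 0 and 0 in Recurring libraries. It was therefore read in 3 of 4 Day 0 and in 1 of 4 Recurring libraries, and the group means were 110.2 ± 132 and 10.7 ± 21.4 (SD, n = 4). The difference was -3.64 (SE 2.19, 95% interval -8.26 to 0.98, limma adjusted p = 0.981). A library with 0 reads allows up to 3 reads, or 1.86 to 3.58 normalized counts over the 8 libraries, for counting error alone. Of the summed Clock and Npas2 level per kilobase, Clock made up 80.7% to 100% in Day 0 and 97.0% to 100% in Recurring libraries.

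The 3 Period genes encode the repressors whose level follows the time of day in most tissues. Per3, the most abundant, stood at 10365, 6593, 5946 and 5616 in Day 0 and at 7182, 2722, 6852 and 4480.2 in Recurring libraries. Recurring replicates 2 and 4 were below all Day 0 libraries. The difference was -0.48 (SE 0.36, 95% interval -1.24 to 0.28, limma adjusted p = 0.981), and it was -0.19 without Recurring replicate 2 and -0.30 without Day 0 replicate 1.

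Per1, the Period gene that activity induces fastest, stood at 453, 863, 969 and 1064 in Day 0 and at 477, 305, 318 and 702 in Recurring libraries. Day 0 replicates 2 to 4 were above every Recurring library, and Day 0 replicate 1 lay below 2 of them. The difference was -0.91 (SE 0.73, 95% interval -2.45 to 0.64, limma adjusted p = 0.981), from means of 837 ± 269 and 450.5 ± 185 (SD, n = 4). Of 12 activity-induced genes listed beside the clock, 11 were in the table, with a summed level of 582 to 4767 in Day 0 and 993 to 4535 in Recurring libraries. Their part in the Per1 values was not tested.

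Per2 varied most among the Period genes. It stood at 17.8, 1367, 222 and 249.6 in Day 0 and at 1659, 1100.3, 258 and 29.4 in Recurring libraries, so that the highest library was 92.9-fold above the lowest, against 3.49-fold for Per1 and 3.81-fold for Per3. Each group had high and low libraries. The difference was 0.83 (SE 1.5, 95% interval -2.33 to 3.99, limma adjusted p = 0.998), and it ran from -0.31 without Day 0 replicate 1 to 2.00 without Recurring replicate 4. Of the summed Period level per kilobase, Per3 made up 53.9% to 92.8% over the 8 libraries, with a median of 73.1%. The shares of Per1 and Per2 had medians of 12.3% and 5.32%.

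The cryptochromes are the partners of PER and the stronger repressors of the CLOCK and BMAL1 pair. Cry1 stood at 0, 169, 201 and 376 in Day 0 and at 48.3, 1033, 29.7 and 10.1 in Recurring libraries. The Recurring group held the highest library, replicate 2, and 3 libraries that were lower than 3 of the Day 0 ones. The difference was 0.11 (SE 2.38, 95% interval -4.91 to 5.13, limma adjusted p = 0.998), and it was -1.23 without Recurring replicate 2 and -1.88 without Day 0 replicate 1. Recurring replicate 2 was also the library with the highest interneuron markers, and their part in its Cry1 level was not tested.

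Cry2 stood at 2000.1, 1118, 741 and 161 in Day 0 and at 439, 676, 1064 and 938 in Recurring libraries. The Recurring values lay inside the Day 0 range. The difference was 0.04 (SE 0.79, 95% interval -1.64 to 1.71, limma adjusted p = 0.998), and it ran from -0.68 without Day 0 replicate 4 to 0.51 without Day 0 replicate 1. Cry2 made up over 66% of the cryptochrome level per kilobase in 6 libraries, from 66.1% in Day 0 replicate 3 to 100% in Day 0 replicate 1. It made up 18.5% in Day 0 replicate 4 and 25.7% in Recurring replicate 2. In GENCODE vM21, 295 exon bases of Cry2 are shared with D930015M05Rik on the opposite strand, and whether reads were counted by strand is not given in the sources used here.

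Nr1d1 and Nr1d2 encode the REV-ERB alpha and beta repressors of the second loop. Nr1d1 stood at 62.5, 632, 631 and 327 in Day 0 and at 627, 435, 475 and 15.2 in Recurring libraries. In each group 1 library was far below the other 3, replicate 1 in Day 0 and replicate 4 in Recurring cells. The difference was -0.49 (SE 1.36, 95% interval -3.37 to 2.38, limma adjusted p = 0.998), and it ran from -1.26 without Day 0 replicate 1 to 0.75 without Recurring replicate 4. Nr1d1 shares 263 exon bases with Thra, the thyroid hormone receptor gene on the opposite strand, which stood at 594 to 2637 in Day 0 and 958 to 1801 in Recurring libraries, so some reads could belong to either gene.

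Nr1d2 stood at 375, 299, 517 and 1231 in Day 0 and at 1712, 300.3, 852 and 1359 in Recurring libraries. Recurring replicates 1 and 4 were above every Day 0 library, and replicate 2 was close to the lowest. The difference was 0.76 (SE 0.77, 95% interval -0.87 to 2.40, limma adjusted p = 0.981), and it ran from 0.43 without Recurring replicate 1 to 1.28 without Recurring replicate 2. The share of Nr1d2 in the summed REV-ERB level per kilobase ran from 21.2% to 77.3% in Day 0 and from 28.2% to 98.1% in Recurring libraries.

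Rora, the ROR alpha activator that competes with REV-ERB for the same elements, stood at 189.6, 380.4, 1641 and 0 in Day 0 and at 103, 0, 46.6 and 0 in Recurring libraries. Day 0 replicates 1 to 3 were above every Recurring library, and Day 0 replicate 4 was at 0 reads. The difference was -3.64 (SE 2.70, 95% interval -9.33 to 2.05, limma adjusted p = 0.981), from means of 553 ± 742 and 37.4 ± 48.9 (SD, n = 4). Without Day 0 replicate 3 it was -2.33, and without Day 0 replicate 4 it was -5.89 (adjusted p = 0.991). The within-group SD of Rora, 4.15 log2 units, was larger than that of 93.8% of tested genes. Rora is also expressed in astrocytes and interneurons. Astrocyte markers summed to 2184, 3002, 3492 and 5045 in Day 0 replicates 1 to 4. They summed to 21341, 11235, 3612 and 2289 in Recurring replicates 1 to 4. Interneuron markers summed to 3918, 1520, 925 and 1974 in Day 0 and to 2077, 12278, 3813 and 1526 in Recurring libraries, in the same order. The part of these cells in the Rora values was not tested.

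**Figure D3:**
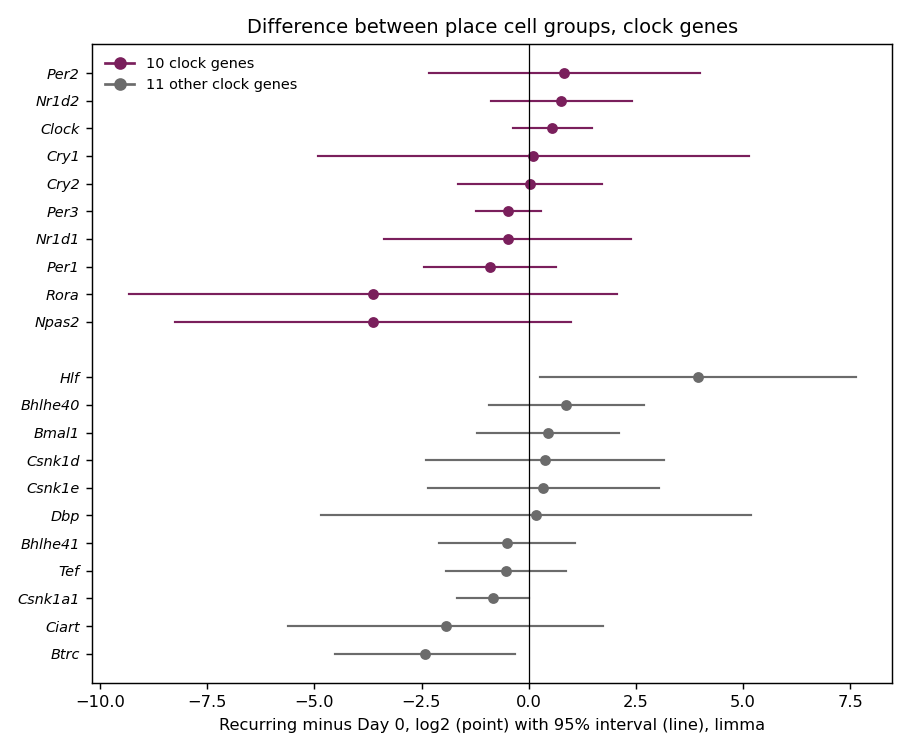
Recurring minus Day 0 difference (log2, points) with limma's 95% interval (lines) for the 10 clock genes and 11 of the other clock genes. The interval crosses 0 for each of the 10 clock genes, and it is narrowest for Per3 (-1.24 to 0.28) and widest for Rora (-9.33 to 2.05).

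The other genes of the clock gave no call either. Of 34 listed, 33 were in the table and 29 were tested, and limma called 0. At an unadjusted p under 0.05 there were 3 of 29 (adjusted p = 0.981 for each), against the 3.62% of all tested genes. The means of 18 were higher and of 11 lower in Recurring cells, with a median difference of 0.32.

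Bmal1, the partner of CLOCK and NPAS2, stood at 477, 932, 1837 and 198 in Day 0 and at 1087, 346, 1264 and 1206 in Recurring libraries. Its groups overlapped, and the difference was 0.45 (SE 0.79, limma adjusted p = 0.998), from -0.10 without Day 0 replicate 4 to 0.96 without Day 0 replicate 3. Its mean per kilobase was 122, against 211 for Clock and 12.6 for Npas2. The ROR beta gene Rorb had 4.06 to 9.69 normalized counts in Recurring and 3.58 to 18.6 in Day 0 libraries and was below the filter.

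Among the additional repressors, Bhlhe41, which encodes the E-box competitor DEC2, was abundant at 980 to 6504 in Day 0 and 476 to 6183 in Recurring libraries, with a difference of -0.51 (SE 0.75) that turned to 0.11 without Recurring replicate 2 and to 0.32 with library weights. Its relative Bhlhe40 (DEC1) ran from 192 to 1947 and from 248 to 2899, with a difference of 0.88 (SE 0.86) that was 0.38 without Recurring replicate 2 and -0.18 with library weights. Ciart, a repressor of the CLOCK and BMAL1 pair, ran from 166 to 946 in Day 0 and from 0.807 to 2012 in Recurring libraries, with a difference of -1.93 (SE 1.74) that was 0.10 without Recurring replicate 2, its lowest library.

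The D-box factors are outputs of the loop. Hlf stood at 310, 527, 29.9 and 0 in Day 0 and at 804, 1251, 324 and 896 in Recurring libraries. The 3 highest values were Recurring, and the fourth Recurring library lay between Day 0 replicates 1 and 2. The difference was 3.96 (SE 1.75, limma unadjusted p = 0.037, adjusted p = 0.981), the smallest p among the higher genes of this list. It was 2.10 without Day 0 replicate 4 (limma unadjusted p = 0.0707) and 1.95 with library weights (unadjusted p = 0.207). Without Day 0 replicate 2 it was 5.11 (limma unadjusted p = 0.0188, adjusted p = 0.961). Tef differed by -0.53 (SE 0.66), and Dbp, whose RNA swings widely over the day in many tissues, was at 1 to 67 in Day 0 and 0 to 247 in Recurring libraries, a difference of 0.17 (SE 2.38) that was -0.80 without Day 0 replicate 4. Nfil3, the repressor at the same element, was below the filter, with reads in 2 Day 0 libraries and 1 Recurring library.

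Kinases and ubiquitin ligases set how long PER and CRY proteins last. Btrc, the ligase component that marks PER for degradation, stood at 579.9, 1014, 2058 and 1138 in Day 0 and at 56.4, 312, 1203 and 78.1 in Recurring libraries. Recurring replicates 1, 2 and 4 were below all Day 0 libraries and replicate 3 was not. The difference was -2.41 (SE 1, limma unadjusted p = 0.0271, adjusted p = 0.981), the smallest p among the lower genes. It was -1.82 without Recurring replicate 1 (limma unadjusted p = 0.0634) and -2.11 without Day 0 replicate 3 (unadjusted p = 0.0879). Without Recurring replicate 3 it was -3.27 (limma unadjusted p = 0.00572, adjusted p = 0.969). Csnk1a1, a casein kinase 1 gene and the third at an unadjusted p under 0.05, differed by -0.84 (SE 0.40, limma unadjusted p = 0.0494, adjusted p = 0.981). Its difference was -0.63 without Day 0 replicate 3 (limma unadjusted p = 0.159) and -1.09 without Day 0 replicate 1 (unadjusted p = 0.0166, adjusted p = 0.97). The PER kinase genes Csnk1d and Csnk1e differed by 0.39 (SE 1.31) and 0.34 (SE 1.28). Csnk1d was at -0.59 without Day 0 replicate 3, and Csnk1e at -0.63 without Day 0 replicate 1.

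Between pairs of clock genes, no correlation across libraries passed adjustment. Of the 45 pairs, 22 had a positive and 23 a negative Pearson's r over the 8 libraries, with a median of -0.02. The lowest exact permutation p adjusted over the 45 was 0.458, and 3 pairs had an unadjusted exact permutation p under 0.05. Per2 and Nr1d1 had r = 0.84 (exact p = 0.0156) and Spearman's rho = 0.67 (exact p = 0.0831), and r was 0.41 without the 2 libraries farthest from the median of Per2, so the relation rests on those libraries. Npas2 and Nr1d2 had r = -0.86 (exact p = 0.0214) and rho = -0.79 (exact p = 0.031), with r = -0.95 without the 2 libraries farthest in Npas2. Of the libraries then left, only Day 0 replicate 1 and Recurring replicate 2 had Npas2 reads, at 29 and 42.8 normalized counts. That r therefore sets 2 libraries against libraries with 0 reads, and it does not show a graded relation. Per2 and Cry1 had r = 0.75 (exact p = 0.0305) and rho = 0.45 (exact p = 0.267), falling to 0.07 without 2 libraries.

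Day 0 replicate 1 and Recurring replicate 4 were the 2 lowest libraries for Per2, Nr1d1 and Cry1 alike. They had 24 and 29 reads of Per2, 84 and 15 of Nr1d1, and 0 and 10 of Cry1, at depths of 11789782 and 9332710 reads. Per3 had 13941 and 4416 reads in the same 2 libraries. These libraries belong to different groups, and they were singled out after their values were seen.

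**Figure D4:**
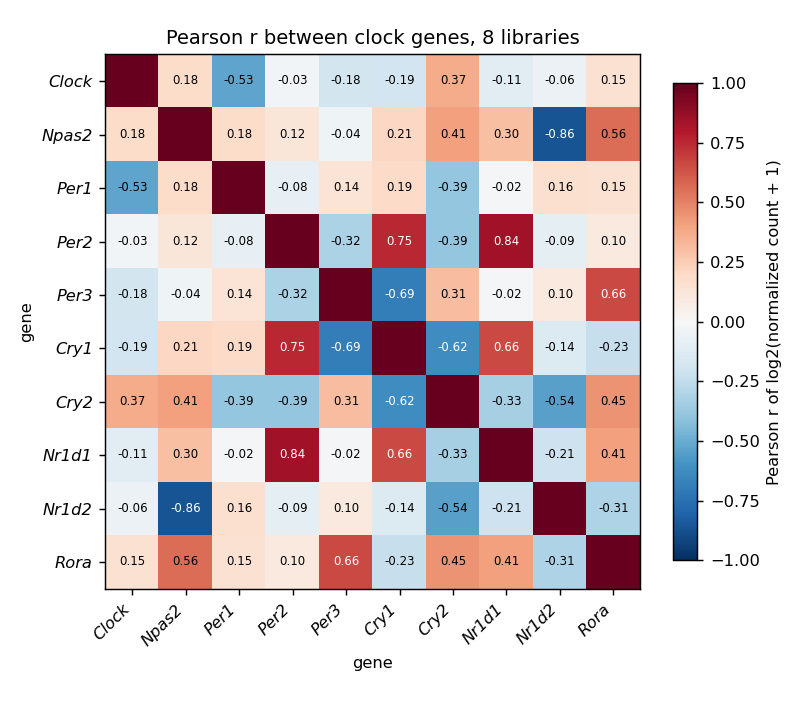
Pearson's r between each pair of clock genes over the 8 libraries, from log2(normalized count + 1), red for positive and blue for negative. The strongest values are 0.84 for Per2 with Nr1d1 and -0.86 for Npas2 with Nr1d2, and the 45 values center near 0.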

How the data were processed

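Per the protocols in the labels, nuclear RNA was amplified with SMART-Seq chemistry. STAR, HTSeq and GRCm39 are named in the submitters' processing notes, with versions not given in the sources used here. The authors deposited a signal per gene and library that is scaled per gene, with no log transform and no correction for depth. Each gene's values were reads multiplied by a constant of its own. For 15516 of 15519 genes that constant was the factor which TMM scaling gives if run across genes, with Ptdss1 as the reference, in place of across libraries. After division by it, 95910 of 95910 nonzero values lay within 0.1 of a whole read. In a simulated table scaled by constants of that same kind, this step returned the reads of 15519 of 15519 genes. Because the simulation assumed that scaling, it cannot show how the deposited values were made. The limma fit was run on simulated counts with known changes, and its detection rates are not given here.

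Depth was corrected by median-of-ratios size factors of 0.837 to 1.61. The 11078 genes that reached 10 normalized counts in 4 or more libraries were tested with limma 3.58.1 in R 4.3.3 on log2(normalized count + 1) with a variance trend, two-sided, at an adjusted p of 0.05. Correlations used two-sided exact permutation over all pairings, adjusted over 45 pairs. The genes and lists were chosen with earlier results of these data known. All 10 clock genes are named, with a fixed set of other clock genes (one of which is not reported here) and, of the other clock genes, the one with the smallest p in each direction. Csnk1a1, Crebbp, Thra and D930015M05Rik were named after their values or overlaps were seen. Exon lengths came from GENCODE vM21 (Bmal1 as Arntl), an earlier build, so levels per kilobase are approximate. Replicate numbers follow the order of deposit and pair nothing. Alternatives were 2 pseudocounts, no filter, other size factors, the deposited values as they stand, voom, no variance trend, library weights and leaving out each library. A covariate for the X-inactivation pattern (Xist reads of 1000 or more in 2 libraries of each group) was added after seeing the data.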

Additional observations from a re-analysis of the deposited data

Results flagged for a closer look

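In groups of 4 libraries, 3 values stood apart from the rest of their group by more than Dixon's 95% critical value, among 20 groups of clock gene values examined. About 1 in 20 such groups of normally distributed values does so by chance. Log2 counts with libraries at 0 reads need not follow that rate, and the rate over all tested genes was not computed. Npas2 stood at 5.45 (log2 of the normalized count plus 1) in Recurring replicate 2, from 53 reads, and at 0 in the other 3 Recurring libraries. With 3 values tied at 0 that gap takes up the whole range whatever the fourth value is, so this one is not to be set against the chance rate. Cry1 stood at 0.00 in Day 0 replicate 1, with 0 reads, and above 7 in the other Day 0 libraries. Nr1d1 stood at 4.02 in Recurring replicate 4, from 15 reads, with the other 3 Recurring libraries far above it. No cause was tested for these values.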

How the results depend on the processing

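Under 18 alternatives, 162 of 176 differences of the 10 clock genes kept their direction, 14 changed sign, and none passed the threshold (lowest adjusted p of 0.913 by limma). With 1 library left out, differences ran from -0.31 to 2.00 for Per2, -1.88 to 1 for Cry1, -0.68 to 0.51 for Cry2 and -1.26 to 0.75 for Nr1d1. With library weights they were -0.33 for Per2, -0.29 for Cry1 and -0.23 for Cry2. Cry1 was at -0.38 with a pseudocount of 8, and Cry2 at -0.01 with total reads as the size factor, -0.03 with the upper quartile and -0.21 by voom. Per1, Per3, Clock, Nr1d2, Npas2 and Rora kept their sign wherever they were tested, but Npas2 fell below the filter in 4 of the 8 fits with a library left out. Unadjusted p fell under 0.05 in 3 of the 176 (Npas2 with library weights, Npas2 and Rora without Day 0 replicate 4). Over all genes limma called 0 except without a variance trend, where it called 2 (A130010J15Rik and Gm47033). Genes at an unadjusted p under 0.05 numbered 401, and 650 with no filter. The number of correlated pairs past adjustment was 0 with deviations from group means and with total reads as the size factor. The cause of these changes was not tested. No paired analysis was possible because the labels give no shared replicate numbers. Reads are not independent molecules, so the limit from 0 reads covers counting error only.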

Other observations

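The genes whose pattern over the 8 libraries was most like that of Per3, by Pearson's r among tested genes outside the lists, were Dipk1b (0.97), Ppp1r11 (0.96) and Mettl5 (0.96). Each was at 0 reads in at least 1 library, and their differences of -2.35 (SE 2.22), -2.87 (SE 2.31) and -2.57 (SE 2.23) missed the threshold (limma adjusted p = 0.981 for each). They were the highest of many values computed on 8 points that share library and depth, and are given as a description.

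Genes that glucocorticoids induce, as they do Per1, were split evenly: of 6 tested of 7 listed, the means of 3 were higher and of 3 lower in Recurring cells, with a median difference of -0.20 and 0 called. Their summed level was 1367 to 6448 normalized counts in Day 0 and 2219 to 8088 in Recurring libraries. Of 7 tested activity-induced genes, 2 were higher and 5 lower, with a median of -0.18 and 0 called. Among coregulators of the clock, Crebbp, a histone acetyltransferase gene chosen after its values were seen, ran from 3497 to 5199 in Day 0 and from 4742 to 7715 in Recurring libraries, a difference of 0.55 (SE 0.32, limma adjusted p = 0.981).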
